A study of Mus musculus with 9 samples.

Results

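The genes described here encode ATP-dependent chromatin remodelers, the SWI/SNF (BAF and PBAF), ISWI, CHD, NuRD, INO80, SRCAP and TIP60-p400 proteins, together with other SNF2 and ARID proteins. They were chosen by symbol, as families with a common stem such as Smarc, Arid, Chd, Mta or Ino80 and a short list of single names. No measured value entered this rule, but it was set with earlier results of these data known. In all, 59 of 12393 genes on the array qualified, measured by 110 of 22626 probe sets. MLP29, a line of mouse liver progenitor cells, had been starved in 0.1% serum for at least 16 h. In each of 3 independent experiments, cells then received a function-blocking antibody to α5β1 integrin (clone BMB5, 10 µg/ml), the growth factor HGF/SF1 (20 ng/ml), which binds Met, for 24 h, or served as the control. Each condition of each experiment gave RNA for 1 Affymetrix Mouse430A_2 array, so that 9 arrays, 3 per condition, set the precision of every value. All cells belong to 1 line. The study's methods call the control cells of the arrays untreated and name a control IgG only for control experiments in general, so here functional blockade cannot be told apart from the presence of any antibody.

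Remodelers use ATP to slide, evict or exchange nucleosomes, and thereby set how accessible promoters and enhancers are. SWI/SNF complexes open chromatin around one of the ATPases Smarca4 and Smarca2, ISWI complexes space nucleosomes around Smarca5 or Smarca1, and NuRD couples the ATPase Chd4 to histone deacetylases and is best known as a repressor. INO80, SRCAP and TIP60-p400 handle the histone variant H2A.Z. In liver, SWI/SNF subunits are known as regulators of hepatocyte differentiation and as genes often mutated in liver cancer.

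The promoters below belong to 3 of the members described, Mta1, the SNF2 ATPase gene Smarcad1 and the INO80 subunit gene Ino80e. They are shown because Mta1 was higher and Smarcad1 lower after the antibody, and Ino80e was lower at 2 of its 3 probe sets, though not at the brightest. Mta3 and Ino80c were not among the promoters used here. Each runs 5′ to 3′ over 250 bases before and 50 after an annotated start in the RefSeq annotation of GRCm38.p6. Capitals mark matches, on either strand, to a GC box (GGGCGG), an AP-1 site (TGACTCA), an E-box (CACGTG) or a HIF core (ACGTG, which lies within the E-box letters).
Mta1, chr12:113098028-113098327, plus strand: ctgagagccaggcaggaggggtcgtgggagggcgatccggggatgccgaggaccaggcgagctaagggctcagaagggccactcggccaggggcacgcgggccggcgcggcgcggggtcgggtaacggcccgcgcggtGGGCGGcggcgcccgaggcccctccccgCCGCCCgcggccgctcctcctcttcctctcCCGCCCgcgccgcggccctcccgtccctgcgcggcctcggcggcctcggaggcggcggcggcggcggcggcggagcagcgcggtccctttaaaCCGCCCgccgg
Smarcad1, chr6:65042341-65042640, plus strand: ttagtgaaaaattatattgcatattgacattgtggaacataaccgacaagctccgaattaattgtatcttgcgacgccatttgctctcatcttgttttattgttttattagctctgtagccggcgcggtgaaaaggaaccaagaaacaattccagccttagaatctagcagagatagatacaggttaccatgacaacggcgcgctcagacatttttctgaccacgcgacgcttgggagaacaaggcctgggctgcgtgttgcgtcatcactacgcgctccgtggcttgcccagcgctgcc
Ino80e, chr7:126862323-126862622, minus strand: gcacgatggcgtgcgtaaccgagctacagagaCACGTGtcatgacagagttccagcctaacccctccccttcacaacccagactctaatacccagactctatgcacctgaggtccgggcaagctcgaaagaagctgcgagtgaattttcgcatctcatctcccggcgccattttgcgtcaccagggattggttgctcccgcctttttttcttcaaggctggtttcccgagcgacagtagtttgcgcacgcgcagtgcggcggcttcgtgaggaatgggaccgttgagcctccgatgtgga
The Mta1 promoter held 4 GC boxes and 81.0% G or C, and the printed Smarcad1 promoter none of the motifs and 47.3% G or C. The printed Ino80e promoter held 1 E-box, 2 HIF cores within the E-box letters and 56.7% G or C. Smarcad1 and Ino80e each have a second start, not printed, whose promoters held no motif and 65.7% G or C for Smarcad1, and 2 GC boxes, 1 HIF core and no E-box for Ino80e. A promoter was found for 49 of the 59 members, and several had more than 1 start. A GC box occurred in 78.9% of 57 member promoters and in 35.7% of 32851 promoters of the annotation. For the AP-1 site these shares were 5.26% and 5.20%, for the E-box 10.5% and 7.15%, and for the HIF core 22.8% and 19.6%. These matches are letters in a window, and binding was not measured. The 32851 promoters were not selected to resemble the 57 in expression or share of G or C, and the 57 belong to 49 genes.

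All levels are log2 values as deposited, with array medians from 5.91 to 6.08, and a change is a difference of 2 such means, on the log2 scale. The label of the cells was checked first. Of 11 liver progenitor and epithelial markers, Krt18 (14.01), Krt8 (13.79), Krt19 (13.23), Cd24a (12.62), Cdh1 (10.75) and Met (9.47) were bright, whereas Epcam (4.34), Afp (4.14), Prom1 (4.39) and Sox9 (5.28) were below the median probe set (6.02), each value being a mean of 9 arrays. All 23 markers of hepatocytes, leukocytes, endothelium and fibroblasts were between 3.25 and 5.58, and no marker passed an unadjusted p of 0.05 after either treatment in the fit without a block. With the experiment as a block, Sox9 passed after the antibody (0.67, adjusted p = 0.191) and Col3a1 after HGF/SF1 (0.29, adjusted p = 1.0). Between antibody and HGF/SF1, Sox9 passed without the block too (0.96, adjusted p = 0.326). Their part in the results was not tested. In such bulk RNA, fewer cells of a type and less RNA per cell cannot be told apart.

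Cells given the antibody to α5β1 integrin, a fibronectin receptor, were set against untreated cells to ask which remodeler genes differ. Under an unadjusted p of 0.05 in limma, 5 of 59 members were called (8.47%), beside 12.6% of all 12393 genes. The NuRD genes Mta1 and Mta3 and the BAF-associated Bcl11b were higher, and the INO80 gene Ino80c and the SNF2 gene Smarcad1 were lower. No member passed an adjusted p of 0.05 (lowest adjusted p = 0.196). Member changes ran from −0.69 for Arid2 to 0.73 for Mta1 with a median of −0.012, beside a median of −0.002 for all genes. Within 0.5 of zero lay 49 members (83.1%), beside 88.2% of all genes. None of the 59 members changed by as much as 1, a fold of 2, and 235 of all 12393 genes did. The antibody and untreated arrays did not overlap for 7 members (11.9%), beside 15.0% of all genes. The shares called and not overlapping were both below those of all genes. The count of calls was sensitive to single arrays. Leaving out antibody array 1 gave 10 and antibody array 3 gave 2 (arrays are numbered by experiment). Untreated array 2 or HGF/SF1 array 2 left out gave 3, and whole experiments 1, 2 and 3 left out gave 13, 1 and 3. With the experiment as a block, 7 members were called (11.9%), beside 18.5% of all genes. Smarca2 was then added to the higher genes, Gatad2a and Arid2 to the lower, and Smarcad1 was lost.

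**Figure D1:**
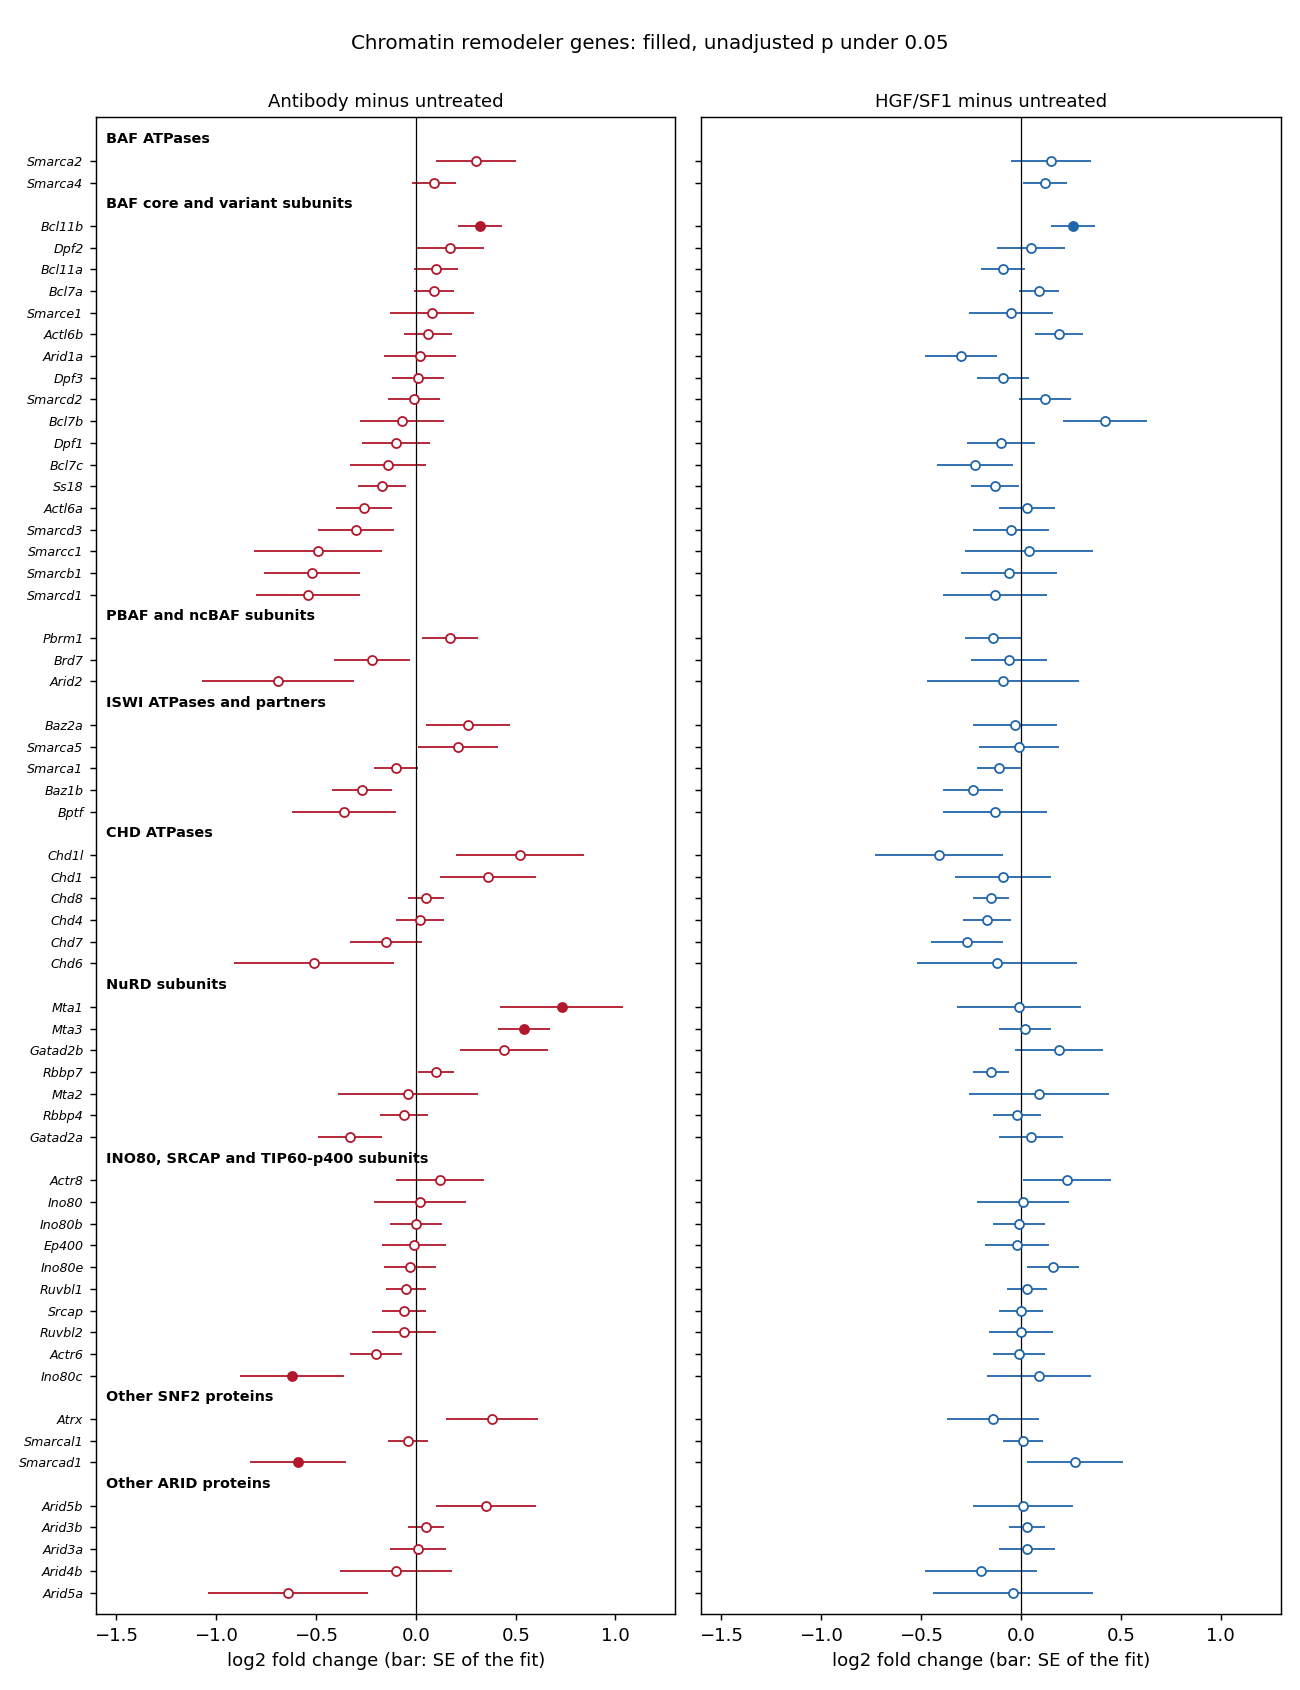
Log2 fold change of all 59 remodeler genes, grouped by complex, for antibody minus untreated (left, red) and HGF/SF1 minus untreated (right, blue); bars are the SE of the fit over 3 arrays per condition, and filled points passed an unadjusted p of 0.05. Antibody changes reach −0.69 and 0.73, and HGF/SF1 changes stay between −0.41 and 0.42.

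Of the 7 NuRD subunit genes in the families chosen, 2 were higher after the antibody (28.6%, beside 12.6% of all genes), none lower. Chd4 was counted with the CHD ATPases. The median change of the 7 was 0.10. None of 7 further NuRD genes outside the families, called partners here, passed without a block. Among these, Hdac1, Hdac2, Mbd2 and Mbd3 encode NuRD subunits too, so the share above covers only a part of NuRD. Mta1 and Mta3 encode scaffold subunits that bind the deacetylases. Mta1 had 8.64, 9.13 and 9.69 in the antibody arrays of experiments 1 to 3, 7.94, 8.52 and 8.78 in the HGF/SF1 arrays, and 8.06, 8.59 and 8.62 in the untreated arrays. Every antibody array lay above every untreated one, and each condition was lowest in experiment 1. The change against untreated was 0.73 (SE 0.31, 1.65-fold, adjusted p = 0.408 in limma), with differences of 0.58, 0.53 and 1.06 within the experiments. With the experiment as a block, the adjusted p was 0.0713. The unadjusted call was lost when untreated array 1 (0.54), 2 (0.81) or 3 (0.82), HGF/SF1 array 2 (0.73) or antibody array 2 (0.74) or 3 (0.46) was left out. It was lost too without experiment 2 (0.82) or 3 (0.56).

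Mta3 passed under more alternatives than the other members called after the antibody. It had 8.74, 8.68 and 8.80 in antibody arrays, 8.11, 8.23 and 8.33 in HGF/SF1 arrays and 8.26, 8.37 and 7.95 in untreated arrays. The antibody arrays stood apart from all 6 others and spanned little. Against untreated cells the change was 0.54 (SE 0.13, 1.46-fold, adjusted p = 0.196 in limma), and it passed the unadjusted threshold in 19 of 20 alternatives. The exception was the median over the probe sets of the gene, where the change was 0.25, the second, dimmer Mta3 probe set differing by −0.05 (adjusted p = 0.935).

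The other NuRD genes did not pass. Mta2, the third paralog, had 7.37, 8.12 and 8.42 in antibody arrays, 7.76, 8.01 and 8.55 in HGF/SF1 arrays and 7.69, 7.75 and 8.61 in untreated arrays, a difference of −0.04 between antibody and untreated cells with a 95% interval from −0.84 to 0.75. Rbbp4, one of a pair of histone-binding WD40 subunits, differed by −0.06 (95% interval −0.34 to 0.22). For its paralog Rbbp7 the brighter probe set differed by 0.10 (adjusted p = 0.752) and the dimmer one by 0.32 (adjusted p = 0.346, past the unadjusted threshold). Gatad2a and Gatad2b, the p66 subunits that link the methyl-CpG-binding subunit to Chd4, differed by −0.33 (adjusted p = 0.485) and 0.44 (adjusted p = 0.506), and Gatad2a passed the unadjusted threshold with the block only.

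Within INO80, SRCAP and TIP60-p400, 1 of 10 members was lower (10.0%) and none higher, beside 12.6% of all genes called. Ino80c, known from yeast Ies6 as a partner of the actin-related protein Arp5, had 7.03, 6.70 and 6.53 in antibody arrays, 7.97, 7.26 and 7.16 in HGF/SF1 arrays and 7.80, 7.16 and 7.16 in untreated arrays. Its antibody arrays lay below all 6 others, and experiment 1 was highest in every condition. The difference from untreated cells was −0.62 (SE 0.26, 0.650-fold, adjusted p = 0.408 in limma). Within experiments it was −0.77, −0.46 and −0.63, and with the block the adjusted p was 0.0713. The unadjusted call was lost without untreated array 1 (−0.41), HGF/SF1 array 2 (−0.62) or antibody array 2 (−0.59) or 3 (−0.51), and with arrays centred on their medians or quantile-normalized (−0.56 each). It was lost too without experiment 2 (−0.70) or 3 (−0.62).

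Ino80e, a metazoan-specific INO80 subunit whose promoter is printed above, differed between its probe sets. Its brightest probe set, which stands for the gene in the counts, differed by −0.03 between antibody and untreated cells (adjusted p = 0.960). The second had 6.51, 5.50 and 6.05 in antibody arrays, 7.30, 7.34 and 7.73 in HGF/SF1 arrays and 7.21, 7.34 and 7.42 in untreated arrays. All 3 antibody arrays lay below the other 6, and the difference from untreated cells was −1.30 (SE 0.24, 0.405-fold, adjusted p = 0.157 in limma). The third probe set was lower as well, with 6.29, 5.87 and 6.37 in antibody arrays, 6.82, 6.77 and 7.04 in HGF/SF1 arrays and 6.86, 6.80 and 6.74 in untreated arrays, a difference of −0.63 (SE 0.15, adjusted p = 0.196). Both passed the unadjusted threshold. Which transcripts each probe set reads was not tested. The helicase genes Ruvbl1 and Ruvbl2, which sit in all these complexes, differed by −0.05 and −0.06, and neither passed. The catalytic genes likewise did not pass, with Ino80 at 0.02 (95% interval −0.52 to 0.55), Ep400 at −0.01 (−0.39 to 0.36) and Srcap at −0.06 (−0.30 to 0.19). Srcap was dim (mean 4.45), below the median probe set, so its narrow interval says little about a change.

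The SWI/SNF genes showed little. Neither ATPase and none of 3 PBAF and ncBAF subunits passed the threshold, and 1 of 18 core and variant BAF subunits was higher (5.56%, beside 12.6% of all genes). Smarca4 (BRG1) had 9.78, 9.99 and 9.88 in antibody arrays, 9.95, 9.83 and 9.95 in HGF/SF1 arrays and 9.77, 9.93 and 9.67 in untreated arrays. Its levels overlapped throughout, and antibody minus untreated was 0.09 with a 95% interval from −0.15 to 0.34. Smarca2 (BRM), the alternative ATPase, had 6.42, 6.76 and 6.68 in antibody arrays, 6.28, 6.73 and 6.40 in HGF/SF1 arrays and 6.00, 6.70 and 6.27 in untreated arrays, a difference of 0.30 (95% interval −0.16 to 0.76). It passed the unadjusted threshold with the block, and a dimmer Smarca2 probe set passed in the other direction (−0.29, adjusted p = 0.340), so no direction can be given for this gene. Of 12 Smarc genes, 1 was lower, Smarcad1 (8.33%, beside 12.6% of all genes called). A negative difference was seen for 8 of the 12, beside 6234 of all 12393 genes.

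Bcl11b, a zinc-finger factor of T cells that can join BAF, was the BAF gene that passed. It was dim, with 4.35, 4.26 and 4.16 in antibody arrays, 4.06, 4.37 and 4.14 in HGF/SF1 arrays and 3.95, 3.88 and 3.97 in untreated arrays. Both treated groups lay above the same untreated arrays, by 0.32 after the antibody (SE 0.11, adjusted p = 0.301 in limma) and by 0.26 after HGF/SF1 (SE 0.11, adjusted p = 1.0). The unadjusted call after the antibody was lost without antibody array 1 (0.28), untreated array 2 (0.30) or experiment 1 (0.28) or 2 (0.30). That after HGF/SF1 was lost with the block and without HGF/SF1 array 2 (0.17) or 3 (0.28), untreated array 1 (0.26), 2 (0.23) or 3 (0.28), or antibody array 2 (0.26). It was lost too without experiment 2 (0.14) or 3 (0.30), after quantile normalization (0.24) and with only the groups compared (0.26).

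Among the SWI/SNF subunits that did not pass, the widest differences by the brightest probe set were negative. Arid2, the DNA-binding subunit of PBAF, had 9.85, 9.04 and 8.13 in antibody arrays, 9.59, 9.69 and 9.55 in HGF/SF1 arrays and 9.93, 9.88 and 9.28 in untreated arrays. Only antibody experiments 2 and 3 lay below the rest, and the difference of −0.69 from untreated cells passed the unadjusted threshold with the block only (adjusted p = 0.554 without it). Smarcb1 (SNF5), a core subunit and tumor suppressor, had 8.98, 8.92 and 8.49 in antibody arrays, 8.80, 9.34 and 9.63 in HGF/SF1 arrays and 9.04, 9.52 and 9.40 in untreated arrays, without overlap between antibody and untreated (−0.52, adjusted p = 0.440). Smarcd1 and Smarcc1, further core subunits, differed by −0.54 (adjusted p = 0.474) and −0.49 (adjusted p = 0.629). The second probe sets of Smarcb1 (0.03), Smarcd1 (−0.10) and Smarcc1 (0.04) were near zero. Smarce1 again depended on the probe set, at 0.08 for the brightest (adjusted p = 0.934) and −0.86 for the second (adjusted p = 0.425, and 0.116 with the block).

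None of the 5 ISWI genes, 6 CHD genes and 5 other ARID genes passed after the antibody. Smarca5 (SNF2H), the main ISWI ATPase, had 9.73, 10.40 and 10.06 in antibody arrays, 9.87, 9.78 and 9.87 in HGF/SF1 arrays and 9.55, 9.85 and 10.15 in untreated arrays, a difference of 0.21 (95% interval −0.24 to 0.66). Smarca1 (SNF2L) was dim, from 3.19 to 3.40 in antibody arrays, 3.16 to 3.38 in HGF/SF1 arrays and 3.29 to 3.51 in untreated arrays, and differed by −0.10 (95% interval −0.36 to 0.16). Chd4, the NuRD ATPase, had 7.89, 7.83 and 7.87 in antibody arrays, 7.63, 7.58 and 7.83 in HGF/SF1 arrays and 7.93, 7.65 and 7.96 in untreated arrays. Its difference from untreated cells was 0.02, with a 95% interval from −0.25 to 0.28. Chd1, which binds methylated H3K4 in transcribed genes, differed by 0.36 (adjusted p = 0.635) at its brightest probe set and by 0.64 (adjusted p = 0.272, past the unadjusted threshold) at the second.

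Of the other SNF2 genes, Smarcad1 was the 1 of 3 called. Its product acts in heterochromatin maintenance and DNA end resection. Smarcad1 had 7.77, 7.77 and 7.05 in antibody arrays, 8.46, 8.28 and 8.42 in HGF/SF1 arrays and 7.72, 8.20 and 8.43 in untreated arrays. Antibody and untreated arrays overlapped, since experiment 1 showed no decrease (0.05), whereas experiments 2 and 3 differed by −0.43 and −1.38. The mean difference was −0.59 (SE 0.24, 0.665-fold, adjusted p = 0.380 in limma). The unadjusted threshold was passed in 11 of 20 alternatives. The call was lost without antibody array 3 (−0.35), untreated array 2 (−0.55) or 3 (−0.43) or HGF/SF1 array 3 (−0.59), and with the block (adjusted p = 0.289). It was lost too without experiment 2 (−0.66) or 3 (−0.19), with the median over the probe sets (−0.23) and with only the groups compared (−0.59). The second probe set differed by 0.13 (adjusted p = 0.841). Atrx, which deposits histone H3.3 in heterochromatin, differed by 0.38 (95% interval −0.15 to 0.91), with 5.79, 6.22 and 6.33 in antibody arrays, 5.69, 5.28 and 5.81 in HGF/SF1 arrays and 5.72, 5.36 and 6.11 in untreated arrays.

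**Figure D2:**
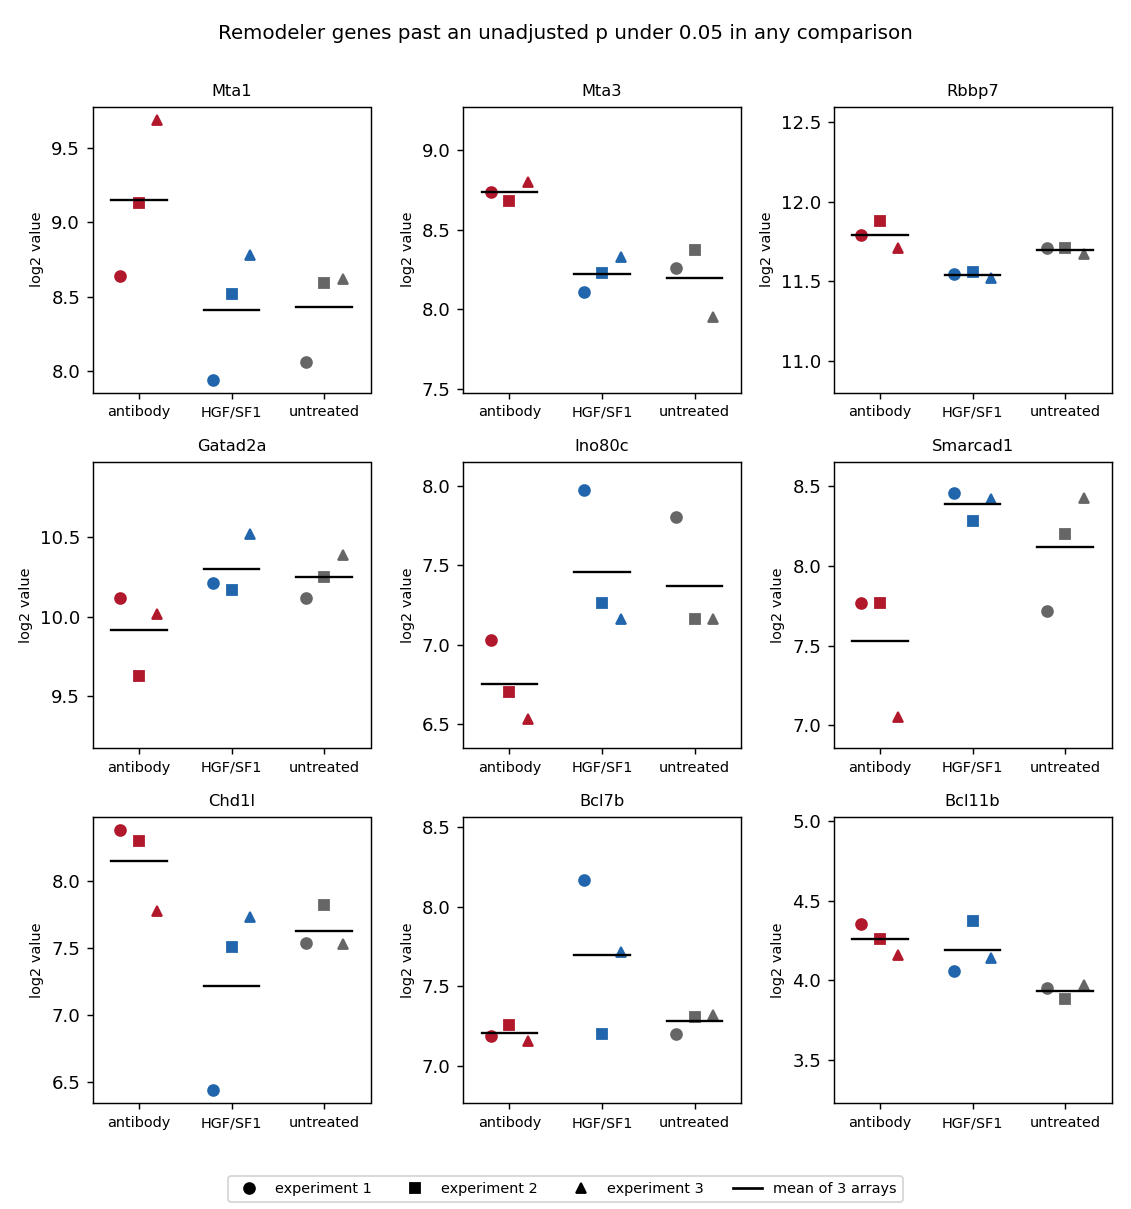
Log2 value on each of the 9 arrays for the 9 members past an unadjusted p of 0.05 in any comparison; symbols mark experiments 1 to 3 and lines the mean of 3 arrays, and each panel has its own axis range. Antibody arrays of Mta3 (8.68 to 8.80) lie above, and those of Ino80c (6.53 to 7.03) below, all other arrays.

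All probe sets of the members were counted as well. Of 110 member probe sets, 5 were higher and 5 lower after the antibody (9.09%), beside 11.8% of 22626 probe sets. A member counted as called by any of its probe sets gave 9 of 59 (15.3%), beside 16.4% of all genes, because Ino80e, Smarca2, Chd1 and Rbbp7 were then included. Of 31 members with several probe sets, 14 had probe sets on both sides of zero, and the other 28 members had 1 probe set only. A direction for Mta1, Ino80c, Bcl11b and Arid2 therefore rests on 1 probe set each.

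**Figure D3:**
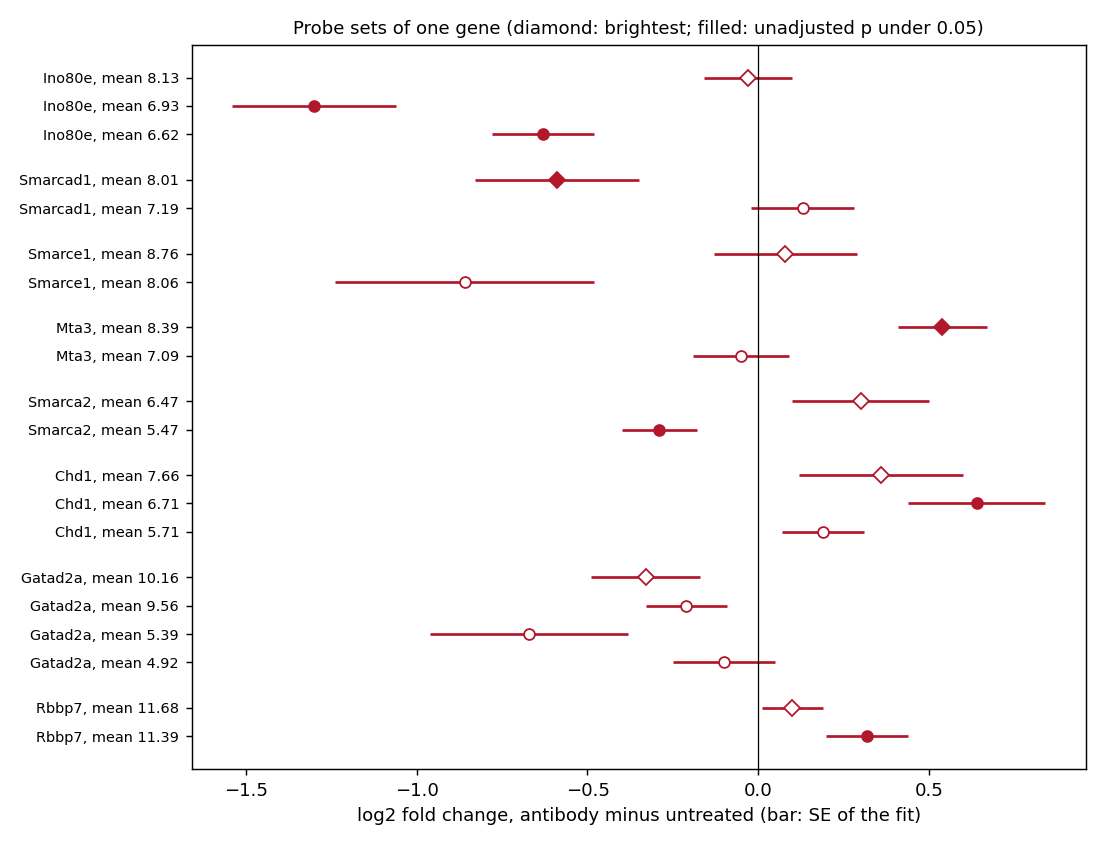
Log2 fold change of antibody minus untreated for each probe set of 8 members; diamonds are the brightest probe set of the gene, circles the others, bars the SE of the fit, and filled symbols passed an unadjusted p of 0.05. The second Ino80e probe set stands at −1.30 and the brightest at −0.03.

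HGF/SF1 stimulation was compared with the same untreated arrays. It called 1 of 59 members, Bcl11b (1.69%), beside 0.839% of all genes, and no member with the block, beside 1.66% of all genes. The count was also 0 without untreated array 2 or 3 or antibody array 2, and 2 without antibody array 3 or experiment 1. None of the 12393 genes passed the adjusted threshold here. Changes ran from −0.41 for Chd1l to 0.42 for Bcl7b, with a median of −0.013 (0.008 for all genes). Groups did not overlap for 6 members (10.2%), beside 3.94% of all genes, namely Arid1a, Bcl11b, Chd8, Baz1b, Rbbp7 and Arid4b. Arid1a, the DNA-binding subunit of canonical BAF and a liver tumor suppressor, had 7.93, 8.22 and 8.20 in HGF/SF1 arrays and 8.41, 8.56 and 8.28 in untreated arrays, a difference of −0.30 (95% interval −0.71 to 0.12). By the brightest probe set all 6 CHD genes had a negative difference after HGF/SF1, from −0.41 to −0.09, as did 5908 of all 12393 genes, and none passed. Dimmer probe sets of Chd1 (0.13 and 0.09) and Chd4 (0.15) were positive, and a further one of Chd4 differed by −0.05.

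Antibody-treated cells were then compared directly with HGF/SF1-treated cells. Here 8 of 59 members were called (13.6%), beside 14.1% of all genes, and the arrays did not overlap for 11 (18.6%), beside 14.5% of all genes. Mta1, Mta3, Rbbp7 and Chd1l were higher with the antibody, and Gatad2a, Ino80c, Bcl7b and Smarcad1 were lower. The lowest adjusted p was 0.164. NuRD subunits of the chosen families made up 4 of the 8, out of 7 measured (57.1%, beside 14.1% of all genes), with Gatad2a lower and the others higher. Chd4 (0.18), counted with the CHD ATPases, did not pass, nor without a block did any of 7 NuRD partners. As these hold the deacetylase and methyl-CpG-binding subunits, the share covers only a part of NuRD. With the experiment as a block 9 members were called (15.3%), beside 20.3% of all genes, and Ino80c fell past the adjusted threshold (−0.71, adjusted p = 0.0468 in limma), as did the second Ino80e probe set (−1.44, adjusted p = 0.0488) and 140 of all 12393 genes (1.13%). With the experiment as a random block the adjusted p of Ino80c was 0.112, so this call was lost. By any of their probe sets, 12 members were called (20.3%), beside 18.1% of all genes. Single arrays moved this count too. Leaving out antibody array 1 gave 13 and antibody array 2 gave 3, and leaving out experiments 1, 2 and 3 gave 13, 3 and 4. As these arrays also enter the comparisons above, the same calls are not independent of them.

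Smarcad1 showed the widest negative difference between the treatments by the brightest probe sets, −0.85 (SE 0.24, 0.553-fold, adjusted p = 0.200 in limma). Its antibody arrays (7.05 to 7.77) lay below all HGF/SF1 arrays (8.28 to 8.46), and it passed the unadjusted threshold in 20 of 20 alternatives. The second probe set, however, differed by 0.07 (adjusted p = 0.915), and the median over both was −0.39. Mta3 differed by 0.52 (SE 0.13, adjusted p = 0.164) and passed in 19 of 20. Mta1 differed by 0.74 (SE 0.31, adjusted p = 0.359) and passed in 11 of 20, and was lost without antibody array 2 (0.75) or 3 (0.47), HGF/SF1 array 1 (0.50) or 2 (0.79) or untreated array 2 or 3 (0.74 each). Ino80c (−0.71, SE 0.26, adjusted p = 0.303 without the block) passed in 15 of 20, and was lost without HGF/SF1 array 1 (−0.45) or antibody array 2 (−0.68) or 3 (−0.60).

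Of the members called only between the treatments, Chd1l (ALC1), a remodeler activated by poly(ADP-ribose), had the widest difference. It had 8.38, 8.30 and 7.78 in antibody arrays, 6.44, 7.51 and 7.73 in HGF/SF1 arrays and 7.54, 7.82 and 7.53 in untreated arrays. The 0.93 between antibody and HGF/SF1 (SE 0.32, 1.91-fold, adjusted p = 0.266) was made of 1.94, 0.79 and 0.06 in experiments 1 to 3. The call was lost without antibody array 1 (0.82) or 2 (0.86), and without experiment 1 (0.42) or 2 (1.00). Rbbp7 had 11.79, 11.88 and 11.71 in antibody arrays, 11.55, 11.56 and 11.52 in HGF/SF1 arrays and 11.71, 11.71 and 11.67 in untreated arrays. Both of its probe sets were higher with the antibody, by 0.25 (SE 0.09, adjusted p = 0.266) and 0.40 (adjusted p = 0.223). The first passed the unadjusted threshold in 15 of 20 alternatives. It was lost without antibody array 2 (0.21), under the brightness filter (0.25), and without experiment 1 (0.26), 2 (0.21) or 3 (0.28). Gatad2a had 10.12, 9.63 and 10.02 in antibody arrays, 10.21, 10.17 and 10.52 in HGF/SF1 arrays and 10.12, 10.25 and 10.39 in untreated arrays. Its difference of −0.38 (adjusted p = 0.370) passed the unadjusted threshold in 7 of 20 alternatives, and was smallest without antibody array 2 (−0.23) or HGF/SF1 array 3 (−0.26). Bcl7b, a small BAF subunit, had 7.19, 7.26 and 7.16 in antibody arrays, 8.17, 7.20 and 7.72 in HGF/SF1 arrays and 7.20, 7.31 and 7.32 in untreated arrays. The −0.49 between the treatments (adjusted p = 0.372) passed in 4 of 20 and was −0.25 without HGF/SF1 array 1.

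Proteins that belong to or work with these complexes but lay outside the families, called partners here, were read as well. Of 34 such partners measured, none passed the unadjusted threshold after the antibody or after HGF/SF1 in the fit without a block. Between the treatments 5 passed in that fit (14.7%), beside 14.1% of all genes, a share near the background. These 5 were named after their values were seen. H2az2, a gene for the H2A.Z histone that SRCAP deposits, was higher with the antibody than with HGF/SF1 by 0.88 (adjusted p = 0.330, with overlapping arrays and 1.65, 0.43 and 0.55 in experiments 1 to 3), the SNF2 helicase gene Hells by 0.77 (adjusted p = 0.339) and Brd8, a TIP60-p400 subunit gene, by 0.34 (adjusted p = 0.296). H2az1, the other gene for this histone, differed by 0.05 (adjusted p = 0.981). Tfpt of INO80 (−0.61, adjusted p = 0.268) and Yeats4 of SRCAP and TIP60-p400 (−0.30, adjusted p = 0.305) were lower. With the block, 2 of the 34 partners passed after the antibody against untreated cells (5.88%, beside 18.5% of all genes), both of NuRD. These were the histone demethylase gene Kdm1a (0.48, adjusted p = 0.0972) and the deacetylase gene Hdac2 (0.44, adjusted p = 0.129). Of the 7 NuRD partners, 4 had a positive difference there and 3 a negative one, Hdac1 (−0.32), Zmynd8 (−0.28) and Mbd3 (−0.27). Between the treatments, 9 of the 34 passed with the block (26.5%), beside 20.3% of all genes, 6 higher with the antibody and 3 lower. Among them were 3 of the 7 NuRD partners (42.9%), 2 higher and 1 lower, with Kdm1a at 0.66 (adjusted p = 0.0503 in limma with the block).

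The spread between experiments was also described. The median range over 3 arrays was 0.44 for the members in antibody-treated cells, 0.33 in HGF/SF1-treated cells and 0.28 in untreated cells, and 6, 3 and 0 members had a range above 1. The widest ranges were those of Arid2 (1.73) in antibody arrays, Arid5a (1.44) in HGF/SF1 arrays and Chd6 (0.99) in untreated arrays. The differences between these ranges were not tested.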

How the data were processed

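RNA of 9 MLP29 cultures was hybridised to 1 array each. The authors used affylmGUI, with rma background correction over all arrays, and deposited 1 log2 value per probe set. The normalization between arrays is not given in the sources used here, and values were used as deposited. Conditions were taken from the agent given for each sample, and experiments from the sample titles.

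Of 22690 probe sets, 64 controls were left out. By the platform annotation 20380 probe sets carry 1 gene name, 691 carry several and 1555 carry no name, and 20351 have a symbol that RefSeq (GRCm38.p6) lists. A gene took the value of its brightest probe set. Of 72 symbols written out for the families, 13 had no probe set naming them alone and were not analysed here, among them Arid1b, Smarcc2, Chd2, Chd3 and Rsf1. The members and lists were chosen with earlier results of these data known.

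A mean per condition was fitted over 22626 probe sets in limma 3.58.1 (R 4.3.3) followed by eBayes (6 residual and 2.39 prior degrees of freedom), two-sided, with Benjamini-Hochberg adjustment over all probe sets. The fit was tested on simulated data. Thresholds were an unadjusted and an adjusted p of 0.05. Array values are given for members called in any comparison and for the catalytic ATPases, with ranges only for Smarca1. For the ATPases Ino80, Ep400 and Srcap only the difference and its interval are given. Other members were named by the size of their difference, after it was seen. After condition means were removed, arrays of the same experiment correlated at r from 0.0958 to 0.591 over probe sets (9 pairs), and arrays of different experiments and conditions from −0.484 to 0.0308 (18 pairs). The titles end in a suffix shared by the arrays of an experiment. What the suffix stands for is not stated, and the arrays were numbered and paired by it. Alternatives were the experiment as a fixed or random block, median centring, quantile normalization, a brightness filter, an intensity trend, the median over or any of the probe sets of a gene, only 2 groups, and each array or experiment left out.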

Additional observations from a re-analysis of the deposited data

How the results depend on the processing

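The number of members called was recomputed under each alternative. For antibody against untreated cells (5 in the fit as reported) it was 7 with the replicate block, 9 with a gene called by any probe set and 0 under the adjusted threshold, and from 1 to 13 when an array or an experiment was left out. For HGF/SF1 against untreated cells (1) it was 0 with the replicate block, after quantile normalization, among probe sets above the median brightness, with only the arrays of the groups compared and under the adjusted threshold, and from 0 to 2 in the fits with arrays left out. For antibody against HGF/SF1 (8) it was 9 with the replicate block, 12 with a gene called by any probe set, 5 among probe sets above the median brightness, 0 under the adjusted threshold and from 3 to 13 with arrays left out. Bcl11b (mean 4.13), the 1 member called after HGF/SF1, lay below the median brightness (6.02), so the brightness filter left it out. The cause of the other shifts was not tested. Median changes over the members stayed between −0.063 and 0.045 after the antibody and between −0.064 and 0.028 after HGF/SF1. By the brightest probe set or the median over probe sets, no change called in the fit as reported reversed its direction, but the second probe sets of Mta3 (−0.05) and Smarcad1 (0.13) lay on the other side of zero after the antibody. Probe sets below the median brightness carry less signal over background.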
